A study of Mus musculus with 144 samples.

Results

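Blood microRNA (miRNA) was compared between mice given 80 µg of multi-walled carbon nanotubes (MWCNT) and mice given dispersion medium alone (DM, the negative control), 6 months after exposure. The arrays were chosen by their source labels, which gave 8 arrays for 80 µg MWCNT and 8 for DM, 16 of the 144 arrays measured. All were male C57BL/J6 mice, 7 weeks old when obtained, with 1 array per mouse and blood as the tissue. DM is the vehicle, so both groups received it, and only the 80 µg group received MWCNT. The other arrays came from mice given lower MWCNT doses (1, 10 or 40 µg), from mice given 120 µg of crocidolite, an asbestos used as positive control, and from months 1 and 12, in 18 groups of 8. No replicate numbers are in the labels. The number of a mouse within its group here is only a name. P-values of the main fit, on all 144 arrays, rest on a spread between mice pooled over the 18 groups. Permutation p-values rest on the 16 mice alone.

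MiRNAs are short RNAs that bind messenger RNAs and lower their stability or translation. In whole blood they come from red cells, platelets and white cells, and a smaller amount is carried in plasma by vesicles and proteins after release from other tissues. MWCNT are long, rigid carbon tubes that clear slowly from the lung and are known there for persistent inflammation and fibrosis. The comparison asks whether the highest MWCNT dose left a difference in circulating miRNA at this time. The probes could not be matched to miRNA names here, so blood cell markers could not be looked up, no sequence is shown, and probes are given by identifier. In whole blood, a shift between cell types and a change of the RNA in each cell cannot be told apart.

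The 16 arrays lay on 13 slides, at positions A and C only, and were scanned on 4 days. Position A held 3 DM and 4 exposed arrays and position C held 5 and 4. On 3 slides both groups were present. Array brightness was taken as the median log2 intensity of the 742 tested probes before scaling. It was 7.24 ± 0.33 (SD, n = 8) in DM and 7.47 ± 0.16 in 80 µg mice, and the difference of 0.23 gave p = 0.111 in an exact two-sided permutation test over all splits of the 16 mice. DM at month 6 was nevertheless the dimmest of the 18 groups, the others averaging 7.33 to 7.62. Its replicates 4 (6.79) and 3 (6.93) were the dimmest of all 144 arrays, and replicate 8 (6.98) ranked 5. The number of mouse probes above threshold (defined below) was 864 ± 150 in 80 µg mice and 801 ± 141 in DM mice (exact permutation p = 0.394). Across 6 array measures compared in this way, the adjusted p ranged from 0.628 to 1.

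**Figure D1:**
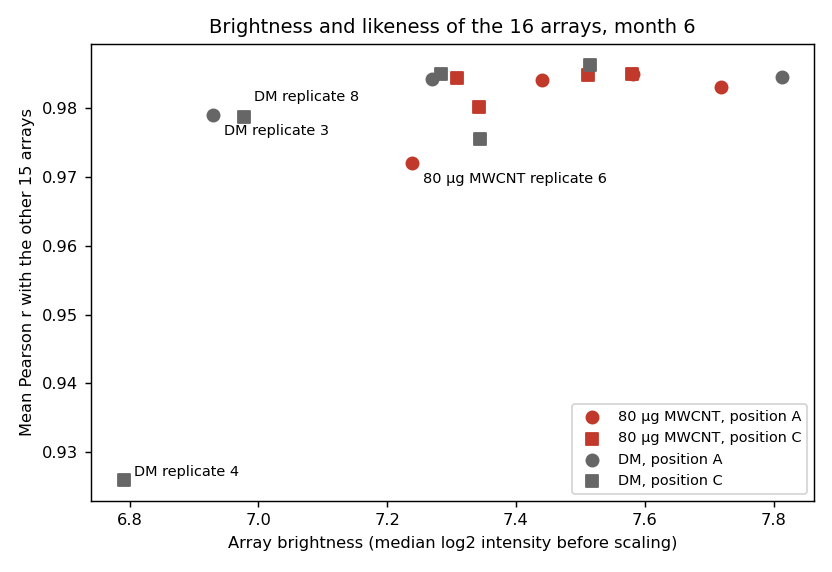
Brightness of each array before scaling (x axis, median log2 intensity) against its mean Pearson correlation over probes with the other 15 arrays (y axis); circles are position A, squares position C, grey DM and red 80 µg MWCNT. DM replicate 4 lies apart at 6.79 and 0.926, and DM replicates 3 and 8 are the next dimmest.

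After scaling, 2 arrays stood apart from the rest. DM replicate 4 correlated with the other 15 arrays at a mean r of 0.926 over probes, and 80 µg replicate 6 at 0.972, while the remaining arrays lay between 0.976 and 0.986. DM replicate 4 was more than 1 log2 unit from the median of the other DM mice for 178 of 742 probes, and 80 µg replicate 6 was that far from its own group for 38. For the other 14 arrays this number ran from 2 to 39, the 39 in DM replicate 2. Both arrays were scanned on the same day, on different slides. The counts and the values of the named probes are given with and without them.

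A probe was tested when its background-subtracted intensity was above an array-specific threshold on all 8 arrays of at least 1 of the 18 groups, which kept 742 of 1262 mouse probes. The threshold was set from the empty spots of the array, at their trimmed mean and 5 SDs more, and lay between 18.3 and 43.2 intensity units on these arrays. Values are log2 normalized intensities with an offset of 50, so the fold changes of dim probes are compressed. A probe was called when 3 conditions held in a limma fit on all 144 arrays: a fold of at least 1.5, an unadjusted p under 0.05, and a p under 0.10 after Benjamini-Hochberg adjustment over all 742 probes.

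With 80 µg MWCNT, 2 of 742 probes were called (0.27%), 1323 and ORB_1210679, and both were lower than in DM. No probe was called higher. The calls rested on the spread shared over all 144 arrays. Fits of the 48 arrays of month 6 or of the 16 arrays alone, with array weights, or by the test of 2 groups named in the study's methods called none, with 99, 51, 39 and 47 probes at an unadjusted p under 0.05. At an adjusted p under 0.10 without the fold limit there were 25 probes (3.37%), of which 12 were higher (1.62%) and 13 lower (1.75%). At an unadjusted p under 0.05 there were 150 (20.2%), with 61 higher (8.22%) and 89 lower (12%). For no probe did the 8 exposed mice and the 8 DM mice fail to overlap (0%). All 8 exposed mice lay beyond the DM median, in the direction of the difference, for 48 probes (6.47%). The numbers of higher and lower probes depended on the scaling. Scaling each normexp-corrected array by a trimmed mean moved the median log2 fold change of all probes from -0.02 to -0.27 and gave 23 higher and 296 lower probes at an adjusted p under 0.10, with 9 probes called, all higher. The deposited table, scaled by the authors, gave a median of -0.25 with 0 higher and 3 lower, all 3 called. Probe 1323 was among these 3, at -0.65 (limma adjusted p = 0.0521), and ORB_1210679 was not, at -0.63 (0.136). Relative to the median of all probes in that table they were at -0.40 and -0.38, smaller than the fold limit. With trimmed-mean scaling they were at -0.54 and -0.52 (limma adjusted p = 0.0849 for each), and neither was called. Relative to the median of all probes under that scaling they were at -0.27 and -0.25.

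**Figure D2:**
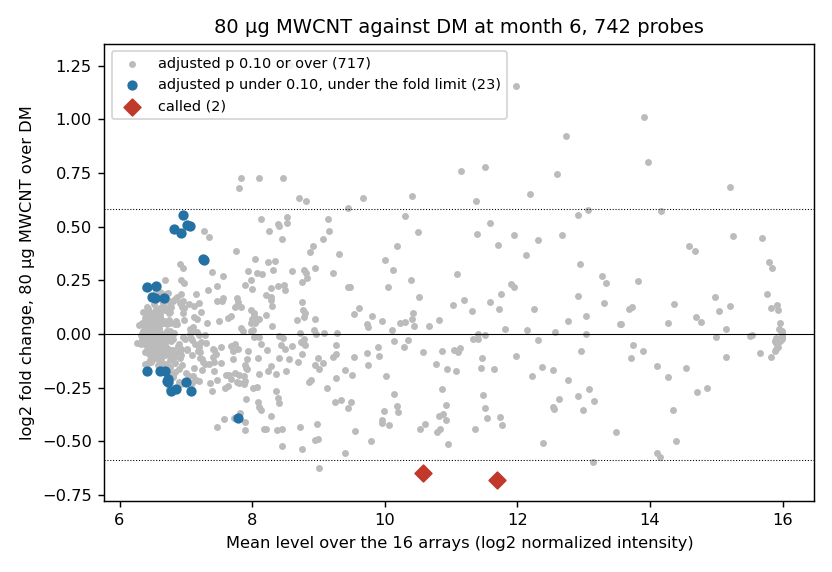
Log2 fold change of 80 µg MWCNT over DM at month 6 (y axis) against the mean log2 normalized intensity over the 16 arrays (x axis), 1 point per probe, 742 probes; dotted lines mark a fold of 1.5. The 2 called probes (red diamonds) lie below the lower line, and most of the 23 others at an adjusted p under 0.10 (blue) are dim and inside the lines.

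Probe 1323 had the largest decrease among the 25. In DM mice 1 to 8 its log2 values were 11.21, 12.42, 12.34, 12.14, 12.03, 11.77, 11.69 and 12.69. In 80 µg mice 1 to 8 they were 11.44, 11.63, 12.00, 11.74, 10.98, 10.15, 11.39 and 11.54. All 8 exposed mice were below the DM median, exposed mouse 6 was the lowest, and DM mice 1, 6 and 7 lay inside the exposed range. The means were 11.36 ± 0.57 (SD, n = 8) with 80 µg and 12.04 ± 0.47 with DM, a log2 fold change of -0.68 ± 0.16 (SE, limma adjusted p = 0.0118), or 1.60-fold lower. In the fits of the 48 arrays of month 6 and of the 16 arrays alone the limma adjusted p was 0.129 and 0.578. The exact two-sided permutation test of the 16 mice alone gave p = 0.0166. In plain background-subtracted intensity, without the offset and before any scaling between arrays, the log2 difference was -0.13 (exact permutation p = 0.738). For this and the other named probes, a value before scaling also holds the difference in array brightness between the groups.

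Probe ORB_1210679, the other called probe, had log2 values of 10.29, 10.77, 10.42, 12.34, 10.56, 10.74, 10.86 and 11.24 in DM mice 1 to 8. In 80 µg mice 1 to 8 they were 10.29, 10.22, 10.31, 10.61, 10.22, 9.39, 10.50 and 10.50. All 8 exposed mice were again below the DM median, but each group held 1 mouse far from its others, DM mouse 4 at the top and exposed mouse 6 at the bottom. The means were 10.26 ± 0.38 (SD, n = 8) and 10.90 ± 0.65, with a log2 fold change of -0.65 ± 0.19 (SE, limma adjusted p = 0.0705), or 1.57-fold lower. In the fits of 48 and of 16 arrays the limma adjusted p was 0.239 and 0.578, and with the study's own scaling it was 0.155. The exact permutation p was 0.00824. The log2 difference without the offset and before scaling was -0.11 (exact permutation p = 0.753).

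Probe ORB_1210244 had the smallest p of the higher probes, at a fold under the limit. Its log2 values in DM mice 1 to 8 were 7.01, 6.72, 6.48, 6.62, 7.01, 7.11, 6.80 and 6.38. In 80 µg mice 1 to 8 they were 6.84, 7.27, 7.07, 6.91, 7.46, 9.13, 6.68 and 6.82. The exposed mean rested in large part on mouse 6, at 9.13, where the next highest mouse was at 7.46. The means were 7.27 ± 0.79 (SD, n = 8) and 6.77 ± 0.26, a log2 fold change of 0.51 ± 0.12 (SE, limma adjusted p = 0.0118) or 1.42-fold higher, while the exact permutation p was 0.0550. The probe was above threshold on 6 of 8 DM arrays and 8 of 8 exposed arrays. Without exposed mouse 6 the log2 fold change was 0.24 (limma adjusted p = 0.131). Its size also moved with the processing. It was 0.84 with plain background subtraction (limma adjusted p = 0.0111), 0.42 (0.189) under the scaling of the study's methods, 0.38 (0.206) in the deposited table and 0.09 (0.671) with trimmed-mean scaling. Without the offset and before any scaling between arrays the log2 difference was 0.89 (exact permutation p = 0.0399), so it differs from the main value in both steps.

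Probe 1104 showed a small difference with little spread on this scale, where the offset compresses both. Its log2 values in DM mice 1 to 8 were 6.56, 6.68, 6.44, 6.53, 6.53, 6.70, 6.61 and 6.59. In 80 µg mice 1 to 8 they were 6.69, 6.72, 6.63, 6.72, 6.78, 6.82, 6.88 and 6.75. All 8 exposed mice lay above the DM median, and 2 of them lay within the DM range. The means were 6.75 ± 0.08 (SD, n = 8) and 6.58 ± 0.08, a log2 fold change of 0.17 ± 0.04 (SE, limma adjusted p = 0.0118) or 1.12-fold higher, with an exact permutation p of 0.00109. This is a dim probe, at 29.3 to 67.7 intensity units above background over the 16 arrays, and it was above threshold on 7 of 8 DM arrays. Its direction changed with the scaling: the log2 fold change was -0.20 with trimmed-mean scaling and -0.03 in the deposited table, where it still lay above the median of all probes by 0.07 and 0.22. Without the offset and before scaling the log2 difference was 0.48 (exact permutation p = 0.00342), a value that also holds the difference in array brightness. With plain background subtraction and quantile normalization the log2 fold change was 0.37 ± 0.09 (SE, limma adjusted p = 0.0133). Under the scaling of the study's methods it was 0.0053 ± 0.16 (0.985). These 4 probes were named for their small p in the same 16 arrays, so the permutation tests add no independent evidence.

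**Figure D3:**
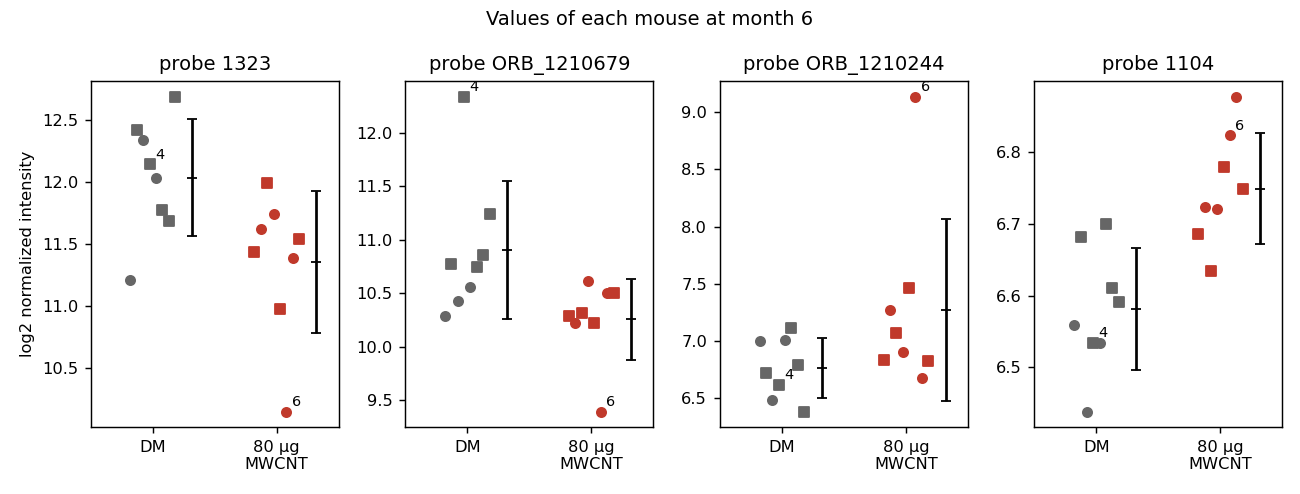
Log2 normalized intensity of each mouse at month 6 for the 4 named probes, DM in grey and 80 µg MWCNT in red, circles for position A and squares for position C; bars are the mean ± SD (n = 8), and the numbers mark DM mouse 4 and exposed mouse 6. Exposed mouse 6 is lowest for probes 1323 and ORB_1210679 and highest for ORB_1210244 (9.13), and DM mouse 4 is highest for ORB_1210679 (12.34).

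The 25 probes at an adjusted p under 0.10 were mostly dim. When the 742 probes were divided into 4 equal classes by mean signal, the dimmest held 4 higher and 1 lower, the next 8 and 9, the third 0 and 1, and the brightest 0 and 2. The brightest class held both called probes. The 12 higher probes had log2 fold changes of 0.17 to 0.56 (median 0.35) and DM means of 6.31 to 7.11, and 10 of them were under the threshold on at least 1 DM array. The 13 lower probes had decreases of 0.17 to 0.68 (median -0.22). All 8 exposed mice lay beyond the DM median for 12 of the 25 (7 higher and 5 lower), and 7 of 8 did for another 8.

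Single arrays held the end values of many of these probes. The DM value farthest from the exposed group came from DM replicate 3 or 4 for 20 of the 25, and for 513 of all 742 probes (69.1%). The exposed value farthest from DM came from 80 µg replicate 6 for 12 of the 25, 8 of the 12 higher and 4 of the 13 lower, and for 204 of all 742 (27.5%). The SD of the exposed mice exceeded that of the DM mice for 8 of the 12 higher and 2 of the 13 lower probes. Over all 742 probes the DM SD was the larger for 565 (76.1%). With array brightness as a linear term in the fit, 0 probes were called and 6 had an adjusted p under 0.10 in limma. At an unadjusted p under 0.05 there were 77 (10.4%). Probe 1323 was then at -0.56 ± 0.15 (SE, limma adjusted p = 0.0637) and ORB_1210679 at -0.54 ± 0.19 (0.193). ORB_1210244 was at 0.52 ± 0.12 (0.0199) and 1104 at 0.16 ± 0.04 (0.0293). The part that array brightness and these arrays had in the differences was not tested beyond this fit and the fits without these arrays.

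Without the 2 dimmest DM arrays (replicates 3 and 4), no probe was called and none reached an adjusted p under 0.10 in limma, the smallest being 0.283. The number at an unadjusted p under 0.05 went from 150 to 38 (5.12%). The 25 probes kept their direction, 609 of all 742 did (82.1%), and a median of 77.4% of the log2 fold change of the 25 remained (lowest 17.1%). Probe 1323 was then at -0.61 ± 0.17 (SE, limma adjusted p = 0.283), ORB_1210679 at -0.49 ± 0.19 (0.589), ORB_1210244 at 0.44 ± 0.13 (0.283) and 1104 at 0.14 ± 0.04 (0.380).

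Leaving out arrays that stood apart from their own group gave the same count. Without DM replicate 4 and 80 µg replicate 6 together, 0 probes were called, 0 reached an adjusted p under 0.10 in limma and 51 had an unadjusted p under 0.05 (6.87%). Probe ORB_1210679 was then at -0.32 ± 0.19 (SE, limma adjusted p = 0.817), 1323 at -0.49 ± 0.16 (0.450), ORB_1210244 at 0.22 ± 0.08 (0.628) and 1104 at 0.15 ± 0.04 (0.327). When 1 array was left out at a time, the number at an adjusted p under 0.10 ran from 0 without 80 µg replicate 6 to 72 without DM replicate 1. It was 4 without DM replicate 8, 5 without DM replicate 4 and 10 without DM replicate 3, and 57 to 59 without DM replicate 5, 6 or 7. The number called ran from 0 without 80 µg replicate 6 to 9 without DM replicate 1 or 80 µg replicate 4.

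**Figure D4:**
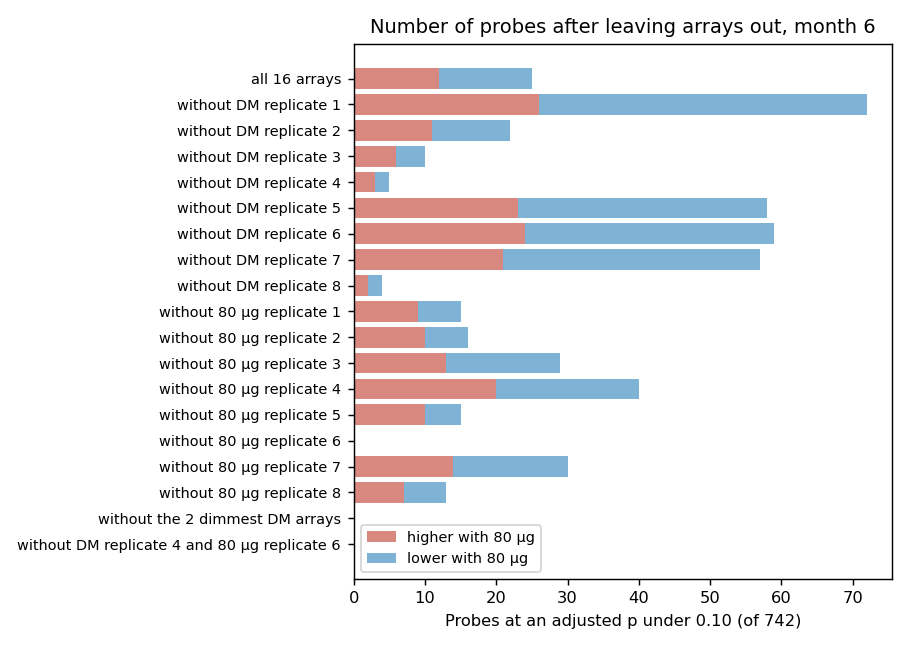
Number of the 742 probes at an adjusted p under 0.10 (x axis) with all 16 arrays and with arrays left out (y axis), split into higher (red) and lower (blue) with 80 µg MWCNT. The count is 25 with all arrays, 0 without 80 µg replicate 6, 0 in both fits without 2 arrays, and 72 without DM replicate 1.

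The differences were also taken within each array position, with no test between positions. In position A, probe 1323 was at -0.63 ± 0.31 (SE) and in position C at -0.65 ± 0.22, while ORB_1210679 was at -0.24 ± 0.29 and -0.86 ± 0.29. For ORB_1210244 the values were 0.66 ± 0.30 and 0.32 ± 0.12, and for 1104 they were 0.28 ± 0.06 and 0.09 ± 0.06. Without 80 µg replicate 6, position A gave -0.28 ± 0.27 for 1323, 0.02 ± 0.28 for ORB_1210679, 0.12 ± 0.14 for ORB_1210244 and 0.26 ± 0.07 for 1104. Without DM replicate 4, position C gave -0.65 ± 0.24, -0.57 ± 0.26, 0.30 ± 0.13 and 0.07 ± 0.06 for the same probes. In position A, 1104 was the 1 probe of 742 at an adjusted p under 0.10 (limma, 0.0825, and 0.358 without 80 µg replicate 6), and in position C there was none, with the smallest at 0.280. On the 3 slides that held both groups, 1323 differed by 0.23, -0.34 and -1.06 between the 2 mice of the slide. ORB_1210679 differed by 0, -0.11 and -0.34, ORB_1210244 by -0.17, 0.59 and 0.45, and 1104 by 0.13, 0.20 and 0.25. Only 1104 had the same sign on all 3 slides. Among the 3 scan days with arrays of both groups, 1323 was at -0.30, -1.03 and -0.22, and ORB_1210679 at -0.22, -1.14 and -0.35. The day with the largest difference for both held DM replicate 4 and 80 µg replicate 6, and without them it gave -0.54 and -0.24.

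The 2 groups also differed in spread at the level of all probes. The median SD over mice was 0.28 log2 units in DM and 0.19 with 80 µg, and the DM SD was the larger for 565 of 742 probes (76.1%). Without DM replicate 4 the share was 62.4%, and without the 2 dimmest DM arrays it was 52.8%, with a median SD of 0.19 in both groups. An array far from the other 7 of its group, by Dixon's criterion, was found for 139 probes in DM (18.7%) and 75 with 80 µg (10.1%). DM replicate 4 gave 95 of the 139 and replicate 3 gave 29, and 80 µg replicate 6 gave 34 of the 75.

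The same 4 probes were then set beside the other exposures at month 6. These exposures were compared with the same 8 DM mice, so these differences are not independent of each other. Arrays of 1 µg, 40 µg and crocidolite mice lay at positions B and D, and those of DM and 10 µg mice at A and C. For 1 µg, 40 µg and crocidolite, exposure and position therefore cannot be told apart. Probe 1323 was at -0.16, -0.19 and -0.20 with 1, 10 and 40 µg MWCNT and at -0.32 with crocidolite (each ± 0.16 SE). For ORB_1210679 the values were -0.28, -0.15, -0.37 and -0.54 (each ± 0.19 SE). None of these differences passed the adjusted threshold (limma adjusted p 0.208 to 0.882). The values of ORB_1210679 rested in part on DM replicate 4, without which they were -0.07, 0.06, -0.17 and -0.34 (each ± 0.19 SE), so the sign with 10 µg turned. Without the 2 dimmest DM arrays they were -0.12, 0.01, -0.21 and -0.38, and those of 1323 were -0.09, -0.12, -0.13 and -0.25.

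The 2 higher probes were set beside the same exposures, with the same limit of array position. ORB_1210244 was at 0.07, 0.20 and 0.22 with 1, 10 and 40 µg and at 0.03 with crocidolite (each ± 0.12 SE). Probe 1104 was at -0.01, 0.08, 0.03 and 0.09 (each ± 0.04 SE). None passed the adjusted threshold (limma adjusted p 0.273 to 0.951). Without the 2 dimmest DM arrays ORB_1210244 was at 0.0023, 0.12, 0.14 and -0.04 and 1104 at -0.04, 0.05, 0.0026 and 0.06. Over the 18 group means, the 80 µg mice of month 6 were the lowest for 1323 and ORB_1210679 and the highest for ORB_1210244 and 1104. The DM mice of month 6 were at the opposite end for 1323 (highest) and ORB_1210244 (lowest). Without 80 µg replicate 6 the 80 µg group ranked 2 from the lowest for ORB_1210679 and kept its end rank for the other 3 probes. Without the 2 dimmest DM arrays the DM group ranked 17 of 18 for 1323 and 4 from the lowest for ORB_1210244. Several of the 18 groups lay at positions B and D, so group and position cannot be told apart in these ranks. The probes were named for the difference between the DM and 80 µg groups of month 6, so these end ranks add no independent evidence.

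**Figure D5:**
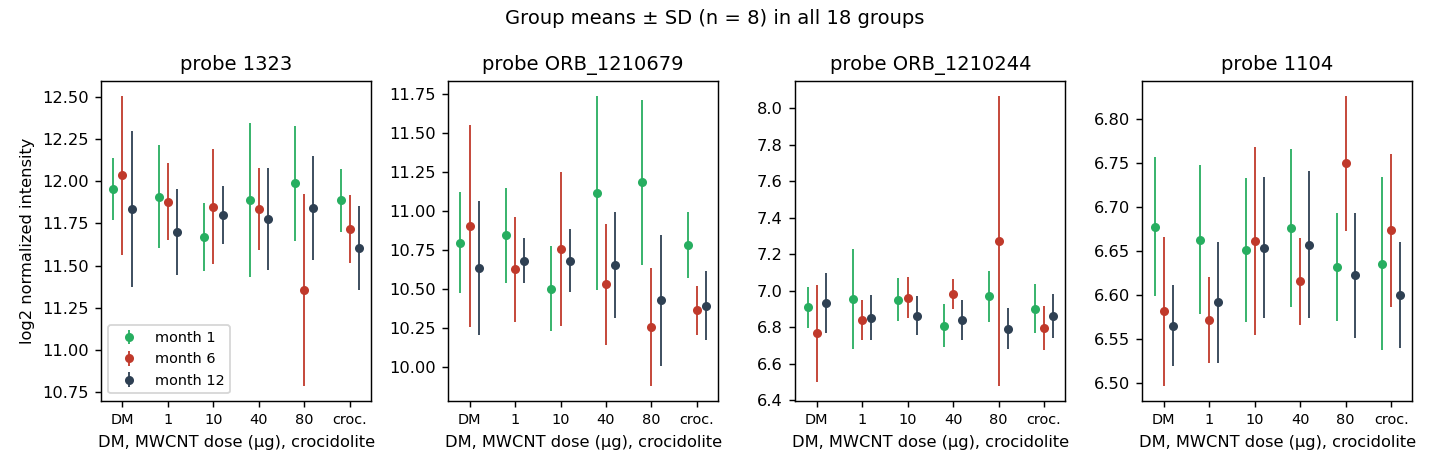
Mean ± SD (n = 8 mice) of the log2 normalized intensity in each of the 18 groups for the 4 named probes, by exposure (x axis) and month (colour). The 80 µg group of month 6 is at an end of each panel, at 11.36, 10.26, 7.27 and 6.75, and its SD for ORB_1210244 (0.79) is the widest in that panel.

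Months 1 and 12 had their own DM and 80 µg mice. Mean array brightness before scaling was 7.36 with 80 µg and 7.47 with DM at month 1, and 7.62 and 7.47 at month 12. The 80 µg arrays were thus the dimmer at month 1 and the brighter at months 6 and 12. The part of array brightness in the differences between months was not tested. At month 1, 0 probes were called, 0 reached an adjusted p under 0.10 in limma and 39 had an unadjusted p under 0.05 (5.26%), with 20 higher (2.7%) and 19 lower (2.56%). At month 12 the counts were 0, 0 and 44 (5.93%), with 16 higher (2.16%) and 28 lower (3.77%). Of the 25 probes, 7 had the direction of month 6 at month 1 and 15 had it at month 12, beside 229 (30.9%) and 467 (62.9%) of all 742. Probe 1323 did not pass at either time, with log2 fold changes of 0.03 ± 0.16 (SE) at month 1 and 0.01 ± 0.16 at month 12. ORB_1210679 was at 0.39 ± 0.19 and -0.21 ± 0.19, ORB_1210244 at 0.06 ± 0.12 and -0.14 ± 0.12, and 1104 at -0.05 ± 0.04 and 0.06 ± 0.04.

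The difference between months was tested directly as the month 6 effect minus that of another month. Against month 1, 22 probes passed an adjusted p under 0.10 (2.96%) and 201 an unadjusted p under 0.05 (27.1%). Probe ORB_1210679 differed by -1.03 ± 0.27 (SE, limma adjusted p = 0.0503), 1104 by 0.21 ± 0.06 (0.0503) and 1323 by -0.71 ± 0.23 (0.0864). ORB_1210244 did not pass, at 0.45 ± 0.17 (0.101). These 4 probes were named for their month 6 difference, which is part of the value tested, so their tests add no independent evidence. Against month 12, 0 probes passed an adjusted p under 0.10 in limma, with 44 at an unadjusted p under 0.05 (5.93%) and a smallest adjusted p of 0.104. Without the 2 dimmest DM arrays of month 6, no probe passed against month 1 either, with 94 at an unadjusted p under 0.05, and the 4 named probes were at -0.87 (ORB_1210679), 0.18 (1104), -0.64 (1323) and 0.38 (ORB_1210244), each at a limma adjusted p of 0.344. The number that passed was 1 without DM replicate 4 and 80 µg replicate 6.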

How the data were processed

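Low-molecular-weight RNA from blood was labelled with 1 dye and hybridised to custom multi-species miRNA arrays, 4 per slide, with 10336 spots and each mouse probe spotted 3 times. Per the file headers and the study's methods, the authors extracted spots with GenePix Pro 4.1, and the deposited median foreground and background intensity of each spot is unnormalized and linear. The deposited value table holds log2 normalized intensity of 1262 mouse probes. Its values matched, array by array, the average over unflagged spots of log2 intensity after background subtraction, shifted by 1 constant (-0.91 to 1.66; largest SD of the difference 1.21e-09 over 1212 to 1262 probes), so its scale and direction are known. Arrays on these slides that carry no sample label were not used.

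Here, each array was the 8-block range its label names. Background was corrected by normexp (offset 50) in limma 3.58.1 (R 4.3.3), bad spots were left out, log2 values were averaged over the spots, and the 1262 mouse probes were quantile normalized over 144 arrays. The detection threshold of an array was the 10% trimmed mean of 21 empty spots plus 5 SDs. The main fit was limma on 18 group means (residual df 126). Precision is limited by the number of arrays, and the comparison had a median SE of 0.11 log2 units. All p-values are two-sided. Named were the called probes and then those of smallest p, to 2 higher and 2 lower. The comparison, the arrays to leave out and the lists were chosen with earlier results of these data known. miRNA lists and blood cell markers could not be looked up by identifier. The limma step was tested on simulated data, drawn as independent normal values with the same SD on all arrays for each probe. The simulation held no array that stood apart and no unlike spread between groups, so it does not cover those features of these data.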

Additional observations from a re-analysis of the deposited data

Results flagged for a closer look

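A sample counted as far from its group when its gap to the nearest of the other 7 was large for the range of the group by Dixon's 95% limit, which chance passes in about 1 in 20 groups. For probe ORB_1210679 this held for DM replicate 4, at 12.34, and for 80 µg replicate 6, at 9.39. For ORB_1210244 it held for 80 µg replicate 6, at 9.13. Among array measures it held for the mean correlation of DM replicate 4 (0.926) and of 80 µg replicate 6 (0.972) with the other 15 arrays. It also held for the detection threshold of DM replicate 3, at 43.2 intensity units, and for the background of 80 µg replicate 2, at 71 intensity units.

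The 80 µg effect at month 6 differed from that at month 1, by limma's test of the difference, for 22 probes at an adjusted p under 0.10. Among the named probes, which were chosen for their month 6 difference, the difference of effects was -0.71 for 1323, -1.03 for ORB_1210679 and 0.21 for 1104. Without the 2 dimmest DM arrays of month 6 the number was 0. The 80 µg arrays were dimmer than the DM arrays at month 1 and brighter at month 6. The part of these arrays and of array brightness in the differences was not tested further.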

How the results depend on the processing

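The counts of probes depended on the processing and on single arrays, and the causes were not tested. With 2 probes called and 25 at an adjusted p under 0.10 as reported, plain background subtraction with quantile normalization gave 7 and 14, normexp with trimmed-mean scaling 9 and 319, an offset of 10 gave 6 and 13, no filter on dim probes 1 and 8, and probes above threshold on all 16 arrays 1 and 2. The scaling of the study's methods and the deposited table each gave 3 and 3. A fit of the 16 arrays alone, of the 48 arrays of month 6, with array weights, or by the test of 2 groups named in the study's methods gave 0 and 0, as did leaving out the 2 dimmest DM arrays, or DM replicate 4 with 80 µg replicate 6 (an alternative chosen after the data were seen). At an unadjusted p under 0.05 these fits gave 51, 99, 39, 47, 38 and 51 probes. Array brightness as a linear term gave 0 and 6. Dropping the fold limit gave 25 and an adjusted p under 0.05 gave 1. Leaving out 1 array at a time gave 0 to 9 called and 0 to 72 at an adjusted p under 0.10. Slide, scan day, position and robust moderation kept both counts within 1.5 times.

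Probe 1104 was at -0.20 with trimmed-mean scaling and -0.0303 in the deposited table, 1323 at 0.23 within 1 slide, and ORB_1210244 at -0.17 within that slide and -0.0454 within 1 scan day. The difference in probes above threshold was -11.7 in position C. The 22 probes that differed from month 1 became 158 in the deposited table, 12 with a position term, 1 without DM replicate 4 and 80 µg replicate 6 and 0 without the 2 dimmest DM arrays. The 0 against month 12 became 1 with a position term. No paired analysis was possible because the labels give the mice no replicate numbers. Only 3 slides held both groups, and slide entered as a random block and as differences within those slides. On these slides DM lay at position A and 80 µg at position C. Dim probes near the background limit what could be measured, since the offset compresses their folds.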
